A study of Mus musculus with 4 samples.

Results

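Fcer1g, Tyrobp, Cd7, Cd160 and Cd244a encode adaptors and receptors best known from natural killer (NK) cells that are also found on unconventional T cells. They are 5 of the 55253 genes that the gene matrices of both libraries have in common, with the identifiers ENSMUSG00000058715.11, ENSMUSG00000030579.10, ENSMUSG00000025163.6, ENSMUSG00000038304.14 and ENSMUSG00000004709.14 in the matrix that lists identifiers. Their raw UMIs (unique molecular identifiers, the count of distinct captured RNA molecules) were read in 8255 T cells with at least 1 Cd3e UMI, out of 29889 analysed cells of the mouse mammary gland. These T cells were split into 4 gates by the UMIs of single genes: 838 cells with Cd4, 1963 with Cd8b1, 881 with Cd8a and no Cd8b1, and 796 with Trdc. A further 3606 T cells had no UMI of a gate gene, and 171 fell into more than 1 gate. The comparison cells were 3164 cells with Ncr1 and no Cd3e. The gates were set by gate genes and not by the members' own levels. The members were named with earlier results of these data known, so they are not a set independent of these data.

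CD45+ immune cells of the mammary gland were profiled by droplet RNA sequencing in 2 pooled libraries, DR_MG_2021 (the older library) and DR_MG_2022 (the newer library), to follow the gland's immune cells through a reproductive cycle. Within a library, cells were assigned to samples by hash tags, antibodies that carry a DNA barcode. The older library gave samples named Nulliparous (5631 analysed cells), Gestation (4408), Lactation (2421) and HT2 (2826). The newer library gave Gestation (3327), Lactation (783), Involution (2216), Regression (2388), Balb/c (1972), GF (2122) and HT2 (1795). Titles write Pregnant where the tag sheets write Gestation. HT2 is a tag whose name is disputed: both sheets write Germ-free for it, but the older title has Involution and no germ-free sample and the newer title has GF once, a name that the sheet gives to another tag. The sources used here do not say how many animals each tag marks, of what strain the other samples were, or at which stage Balb/c and GF animals were taken. Each p-value therefore takes hash-defined samples as its units, and a sample may hold 1 or several animals. Tag signal was weak in the Lactation cells of the newer library, with a median of 6 tag counts per cell against 13 to 128 in the other samples. The older matrix held 56300251 UMIs and its cells a median of 1599 UMIs, and the newer matrix held 90642638 UMIs with a median of 3049 per cell.

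Fcer1g encodes the Fc receptor gamma chain and Tyrobp encodes DAP12. Both are short membrane proteins that bring an activating ITAM motif to receptors that have no signalling tail of their own, such as Fc receptors and NK cell receptors, and they pass the signal on through the kinases Syk and Zap70. CD7 is an immunoglobulin-family protein of T and NK cells, CD160 is a receptor for the herpesvirus entry mediator and for MHC class I molecules, and CD244 (2B4, gene Cd244a) is a SLAM-family receptor for CD48. Conventional T cells read antigen with an alpha-beta receptor and carry CD4 or the CD8 alpha-beta pair, while intraepithelial-type T cells often carry CD8 as an alpha-alpha pair or use a gamma-delta receptor, whose delta chain constant region is encoded by Trdc.

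In mouse, Fcer1g and Cd244a lie on the same chromosome, with starts 325 kb apart in the RefSeq annotation of GRCm38.p6, and Cd160 lies on chromosome 3. RefSeq promoter windows were matched for 3 of the 5 members, and Cd160 had 2 windows. The 250 bases before the start of Fcer1g (chr1:171234350-171234599, minus strand, 54.8% G or C) and of Cd244a (chr1:171558943-171559192, plus strand, 53.2% G or C) are shown because their levels followed each other closely between gates, as described further on. Both are written 5′ to 3′ on the gene's strand, and capitals mark a match to a searched motif.
Fcer1g: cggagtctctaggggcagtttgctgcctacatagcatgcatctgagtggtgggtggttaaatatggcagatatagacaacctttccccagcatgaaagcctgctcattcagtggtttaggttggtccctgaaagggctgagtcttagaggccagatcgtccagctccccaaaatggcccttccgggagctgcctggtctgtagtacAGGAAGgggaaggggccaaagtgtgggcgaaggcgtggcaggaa
Cd244a: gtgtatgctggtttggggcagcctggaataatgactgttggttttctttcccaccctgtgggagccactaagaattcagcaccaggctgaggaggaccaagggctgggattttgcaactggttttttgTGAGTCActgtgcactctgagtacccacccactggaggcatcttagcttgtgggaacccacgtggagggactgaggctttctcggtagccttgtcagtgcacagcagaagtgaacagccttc
The strings searched, on both strands, were TGTGGT (RUNX-type), AGGAAG (ETS-type), TGACTCA (AP-1-type) and GGTGTGA (T-box-type), none of which contains another. The Fcer1g window held AGGAAG 44 bases before the start, a string found in 29.5% of 32851 windows of this length. The Cd244a window held TGACTCA on the reverse strand, 122 bases before the start, a string found in 4.46% of windows. Neither held TGTGGT, found in 14.05% of windows, or GGTGTGA, found in 3.33%. Both Cd160 windows held TGTGGT and AGGAAG, and 1 of them held GGTGTGA. A match describes the letters only.

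The gates behaved as T cell gates in their other genes. A list of 8 T cell genes without Cd3e (Cd3d, Cd3g, Trac and others) summed to 29.9 to 43.0 UMIs per 10000 in the 4 T cell gates of the 2 libraries, against 8.23 and 8.20 in the Ncr1 cells and 0.909 and 0.649 in B cells. Paired values name the older library before the newer. Trac, the alpha chain constant region, was at 0.50 and 0.92 per 10000 in the Trdc gate and at 3.65 and 5.25 in the gate with Cd8a and no Cd8b1. The Cd8a without Cd8b1 gate was not free of gamma-delta RNA. A list of 5 gamma-delta T cell genes, Trdc among them, summed to 2.28 and 2.91 there and to 13.4 and 18.1 in the Trdc gate. It was at 0.147 and 0.211 in the Cd4 gate and 0.353 and 0.487 in the Cd8b1 gate. A list of 12 myeloid genes (Lyz2, Csf1r and others), all 12 of which had UMIs in the Cd8a without Cd8b1 gate in the older library, summed to 6.02 and 5.20 per 10000 there and to 7.26 and 8.21 in the Trdc gate. The same list was higher in the Cd4 gate, at 9.94 and 13.4, and stood at 173 and 190 in cells with Csf1r. NK cell genes were present in the unconventional gates: a list of 8 (Klrb1c, Gzma, Eomes and others) reached 129 and 60.0 per 10000 in the Cd8a without Cd8b1 gate and 158 and 60.0 in the Trdc gate, against 139 and 78.03 in the Ncr1 cells. In the Cd4 gate the list was at 5.88 and 2.50. Its genes weigh unequally in the sum: over the sums of a gate in a sample, Gzma had 106526 UMIs and Klrb1c 6157. In the older library Klrb1c was at 2.49 in the Cd8a without Cd8b1 gate, 3.08 in the Trdc gate and 5.74 in the Ncr1 cells. Eomes was at 0.36, 0.10 and 1.32 in the same order, so the sum does not describe each gene. Ncr1 itself was nearly absent from the Cd8a without Cd8b1 gate, at 0.13 and 0.39, against 7.56 and 6.77 in the Ncr1 cells, and the Trdc gate had 1.02 and 1.61.

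The adaptor Fcer1g was low in conventional T cells and high in unconventional ones. Over hash-defined samples with at least 20 cells in a gate, its level ran from 0.289 through a median of 1.30 to 5.88 UMIs per 10000 in the Cd4 gate (n = 11). In the Cd8b1 gate it ran from 1.03 through 2.17 to 5.07 (n = 11), in the Cd8a without Cd8b1 gate from 3.58 through 11.3 to 25.2 (n = 10), and in the Trdc gate from 6.04 through 18.1 to 25.5 (n = 10). The Cd4 and Cd8b1 ranges overlapped almost throughout, every Trdc sample lay above every Cd4 sample, and the Cd8a without Cd8b1 gate reached down into the top of the Cd8b1 range with its Regression sample and the HT2 sample of the older library. In the Ncr1 cells the level was more even, from 14.8 through 21.02 to 24.6 (n = 11). B cells, which served as the reference for free RNA because they carry at most little of these genes, ran from 0.632 through 1.66 to 5.52. The highest was the Lactation sample of the older library, whose 31 B cells also carried myeloid RNA. The Cd8b1 levels lay within the B cell range and the Cd4 levels passed it only narrowly at either end. Pooled over a library, however, Fcer1g stood at 2.32 and 1.71 in the Cd4 gate and at 2.61 and 2.05 in the Cd8b1 gate. Pooled B cells had 1.24 and 1.58. In barcodes of the older library with at most 100 UMIs, which are mostly droplets without a cell, Fcer1g stood at 6.22 per 10000, Tyrobp at 5.92, Cd7 at 2.28, Cd160 at 0.313 and Cd244a at 0.320.

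Tyrobp was likewise low in the conventional gates and higher in the unconventional ones, although its median was no higher in the Cd8b1 than in the Cd4 gate. It ran from 0.226 through 2.13 to 3.19 UMIs per 10000 in the Cd4 gate, from 0.771 through 1.91 to 3.69 in the Cd8b1 gate, from 2.11 through 6.99 to 15.7 in the Cd8a without Cd8b1 gate, and from 4.08 through 9.01 to 18.4 in the Trdc gate. The Ncr1 cells were the highest, from 15.6 through 18.9 to 22.3, above the Trdc gate of the same sample in 10 of 10 samples. B cells ran from 0.527 through 1.67 to 7.51, a range that overlapped those of the conventional gates. Pooled over a library, Tyrobp stood at 1.82 and 1.61 in the Cd4 gate, 1.93 and 1.41 in the Cd8b1 gate and 1.26 and 1.64 in B cells. Neither adaptor was limited to lymphocytes: cells with Csf1r had Fcer1g at 20.2 and 19.6 per 10000 in the older and newer library. The balance of the adaptors differed between cell types. The Cd8a without Cd8b1 gate held 1.71 and 1.61 Fcer1g UMIs for each Tyrobp UMI in the older and newer library and the Trdc gate held 1.64 and 1.496, whereas the Ncr1 cells held 1.24 and 0.967, the Csf1r cells 1.06 and 1.04, and B cells 0.985 and 0.962. The Cd8b1 gate held 1.35 and 1.46 and the Cd4 gate 1.27 and 1.06. These ratios have no test. In both libraries the unconventional T cell gates lay above the Ncr1, Csf1r and B cells, but so did the Cd8b1 gate. The higher ratio was therefore not particular to the unconventional gates.

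**Figure D1:**
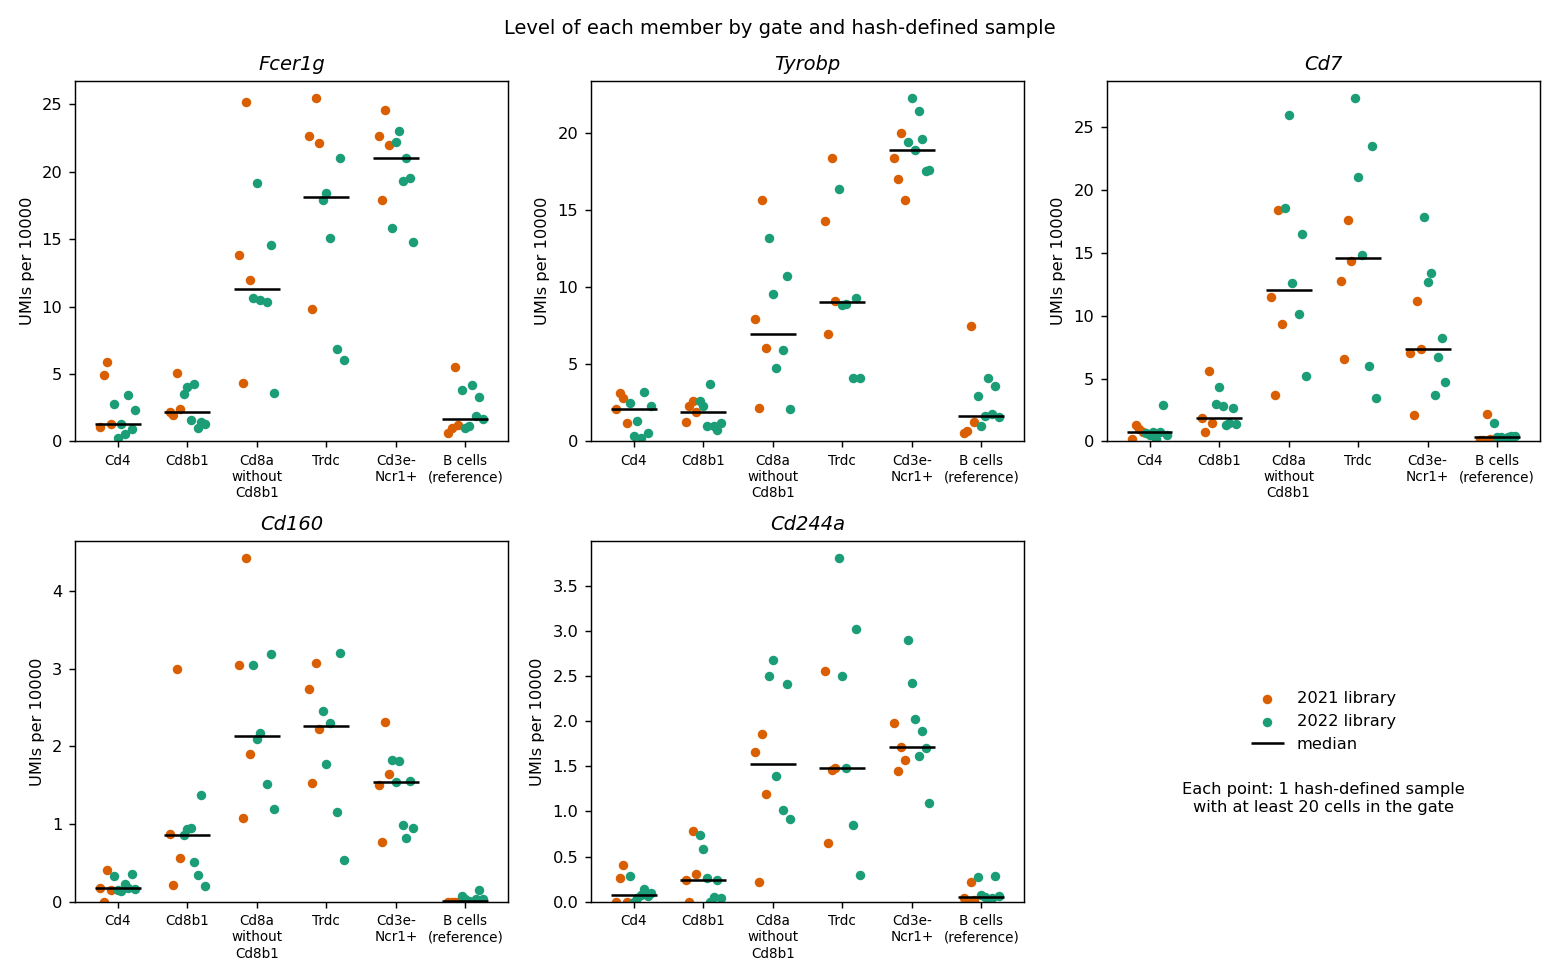
Level of each gene (UMIs per 10000 UMIs, linear axis from 0) in 4 T cell gates, Ncr1 cells without Cd3e and reference B cells. Each point is 1 hash-defined sample with at least 20 cells in the gate, coloured by library, and the black line is the median. Fcer1g rises from a median of 1.30 in the Cd4 gate to 18.1 in the Trdc gate, and Cd7 and Cd160 are higher in the Cd8a without Cd8b1 and Trdc gates than in the Ncr1 cells.

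Cd7 was higher in unconventional T cells than in the Ncr1 cells of most samples. Its level ran from 0.177 through 0.767 to 2.88 UMIs per 10000 in the Cd4 gate, from 0.786 through 1.88 to 5.64 in the Cd8b1 gate, from 3.67 through 12.05 to 25.9 in the Cd8a without Cd8b1 gate and from 3.46 through 14.6 to 27.3 in the Trdc gate. The Cd8a without Cd8b1 and Trdc samples all lay above the highest Cd4 sample. The Ncr1 cells ran from 2.13 through 7.34 to 17.8 and were above the Cd8a without Cd8b1 gate in 1 of 10 samples. B cells ran from 0.077 through 0.362 to 2.21. Cells with Cd3e were 22.2% of the cells in the older library and 33.3% in the newer, and they held 46.7% and 53.4% of all Cd7 UMIs, while Csf1r cells held 0.887% and 2.05%. For Cd160 the T cell share was 47.8% and 59.6%. Fcer1g and Tyrobp were spread more widely, with 23.7% and 21.6% of Fcer1g UMIs and 16.98% and 16.04% of Tyrobp UMIs in T cells.

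Cd160 was also higher in unconventional T cells than in the Ncr1 cells. It ran from 0 through 0.175 to 0.406 UMIs per 10000 in the Cd4 gate, from 0.203 through 0.860 to 2.997 in the Cd8b1 gate, from 1.08 through 2.13 to 4.42 in the Cd8a without Cd8b1 gate and from 0.535 through 2.26 to 3.20 in the Trdc gate. In the Ncr1 cells it ran from 0.770 through 1.55 to 2.31, below the Cd8a without Cd8b1 gate in each of the 10 samples. B cells had 0 Cd160 UMIs in the older library and 0.0313 per 10000 in the newer library. Unlike those of the adaptors, the Cd160 range of the Cd8b1 gate lay wholly above that of the B cells, whose highest sample was at 0.144.

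Cd244a was near 0 in the Cd4 gate, low in the Cd8b1 gate and alike in the other gates. It ran from 0 through 0.075 to 0.406 UMIs per 10000 in the Cd4 gate and from 0 through 0.241 to 0.785 in the Cd8b1 gate. It ran from 0.216 through 1.53 to 2.67 in the Cd8a without Cd8b1 gate, from 0.292 through 1.48 to 3.80 in the Trdc gate and from 1.10 through 1.71 to 2.90 in the Ncr1 cells. The ranges of the last 3 gates overlapped, and neighbours among them did not differ beyond their spread. In B cells Cd244a stood at 0.0290 and 0.0657 per 10000 in the older and newer library. Pooled in the same way, it stood at 0.0883 and 0.0877 in the Cd4 gate and at 0.313 and 0.268 in the Cd8b1 gate.

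Tests between gates used edgeR's quasi-likelihood test on summed counts with the sample as a block, over 5485 genes, with Benjamini-Hochberg adjustment. The gate comparisons share sums and are not independent of each other. All 5 members passed the filter on low counts in each comparison. Between the Cd8a without Cd8b1 and the Cd8b1 gates all 5 members rose, where 12.8% of all genes tested were called. The log2 fold change was 2.22 (SE 0.26, adjusted p = 5.8e-09) for Fcer1g, 2.05 (SE 0.27, adjusted p = 6.3e-08) for Tyrobp and 2.32 (SE 0.18, adjusted p = 6.0e-14) for Cd7. It was 1.43 (SE 0.14) for Cd160 and 2.43 (SE 0.24) for Cd244a, with adjusted p of 2.7e-11 and 3.1e-11. Each member was higher in the Cd8a without Cd8b1 gate in 10 of 10 samples, except Tyrobp in 9 of 10.

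Against the Cd4 gate, all 5 members rose in the Cd8a without Cd8b1 gate, where 15.4% of genes were called, and in the Trdc gate, where 19.1% were called. In the Trdc gate Fcer1g was 7.42-fold higher, Tyrobp 5.30-fold, Cd7 15.7-fold, Cd160 9.53-fold and Cd244a 17.8-fold, with all 5 higher in 10 of 10 samples. In the Cd8a without Cd8b1 gate the folds were 5.69, 4.31, 14.8, 11.2 and 17.04 in the same order of genes. These 3 comparisons called all 5 members under each of 15 alternative settings, including each library alone and DESeq2.

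Within conventional T cells the members split. Between the Cd8b1 and Cd4 gates 3 of 5 members rose, where 8.84% of genes were called: Cd7 by 1.57 log2 units (SE 0.23, adjusted p = 1.9e-06), Cd160 by 2.05 (SE 0.23, adjusted p = 1.7e-09) and Cd244a by 1.66 (SE 0.45, adjusted p = 0.0106). The log2 fold change was 0.29 (SE 0.29, adjusted p = 0.694) for Fcer1g and 0.06 (SE 0.29) for Tyrobp. Over samples, the levels of both genes in these gates overlapped those of the B cells. The older library alone, with fewer samples, called none of the 3. The Cd244a call was lost in 4 of 15 alternative settings, with an adjusted p of up to 0.6002, and Fcer1g was called in 1, without the filter on low counts (adjusted p = 0.0273).

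No member was called between the Trdc and the Cd8a without Cd8b1 gates by edgeR's quasi-likelihood test, where 0.966% of genes were called. The log2 fold changes were 0.38 (SE 0.25) for Fcer1g, 0.30 (SE 0.25) for Tyrobp, 0.09 (SE 0.17) for Cd7, -0.23 (SE 0.14) for Cd160 and 0.06 (SE 0.21) for Cd244a. None had an unadjusted p under 0.05, and DESeq2 called 0 members. Without a filter on low counts Fcer1g was called, with a log2 fold change of 0.36 and an adjusted p of 0.0144. Gamma-delta RNA was also present in the Cd8a without Cd8b1 gate, as given above, and its part in this comparison was not tested.

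The cells with Ncr1 and no Cd3e differed from the Cd8a without Cd8b1 gate in opposite directions by gene. Fcer1g rose by 0.76 log2 units (SE 0.24, adjusted p = 0.0257, edgeR) and Tyrobp by 1.29 (SE 0.24, adjusted p = 8.2e-05), while Cd7 fell by 0.57 (SE 0.17, adjusted p = 0.0144) and Cd160 fell by 0.68 (SE 0.13, adjusted p = 8.3e-05). The log2 fold change of Cd244a was 0.22 (SE 0.19, adjusted p = 0.534). So 4 of 5 members were called, where 14.3% of genes were. The directions held in 9, 10, 9 and 10 of 10 samples for the 4 called genes. The Fcer1g call was lost in 9 of 15 alternative settings, the Cd7 call in 6 and the Tyrobp and Cd160 calls in 1 each, with the direction kept in each.

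**Figure D2:**
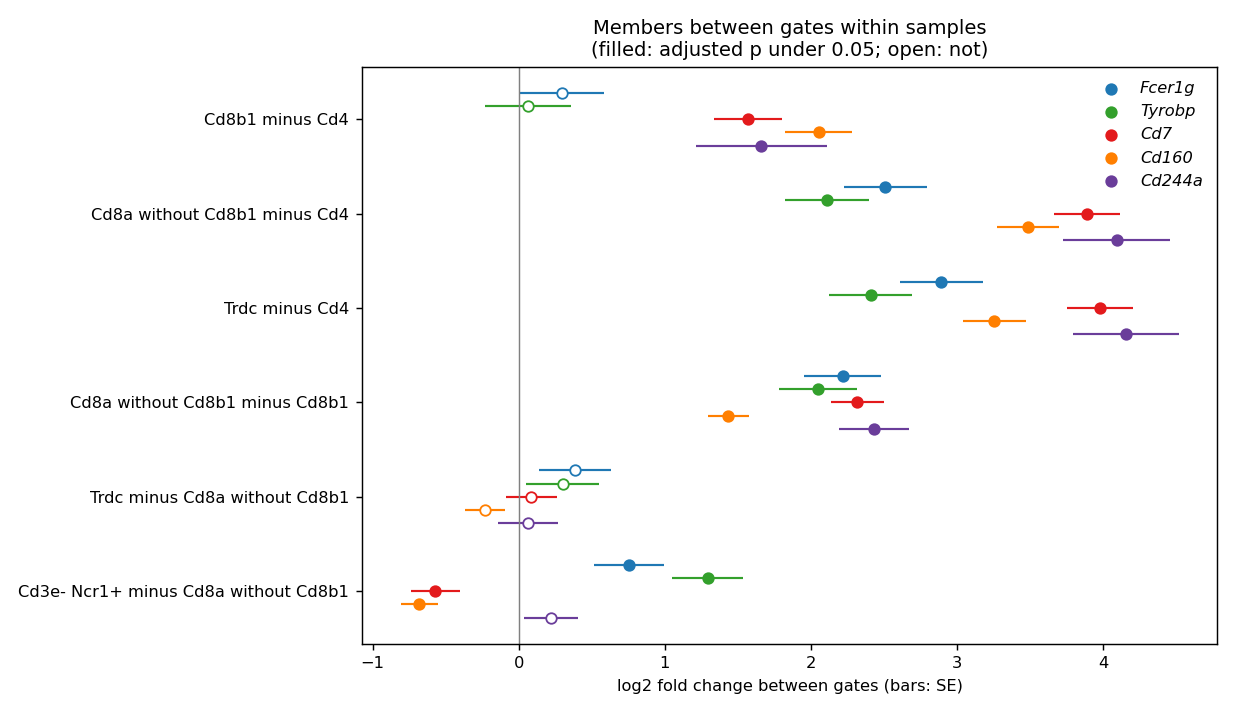
Log2 fold change of each gene between gates (horizontal axis, bars are the SE), with filled points for an adjusted p under 0.05 by edgeR's quasi-likelihood test. The points for the unconventional gates against Cd4 lie between 2.11 and 4.15, those of Trdc against Cd8a without Cd8b1 lie around 0, and those of the Ncr1 cells fall on both sides of 0.

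The members were also found in a larger share of cells in the unconventional gates. Cells were thinned to 1000 UMIs each, which left out 33 and 3 cells of the Cd8a without Cd8b1 gate, 46 and 6 of the Cd8b1 gate, 16 and 1 of the Trdc gate and 29 and 0 of the Cd4 gate in the older and newer library. Fcer1g was detected in 46.8% ± 18.8 of Cd8a without Cd8b1 cells and 11.2% ± 4.38 of Cd8b1 cells (SD, n = 10 samples), against 57.0% and 18.5% without thinning. Its share in B cells was 5.70% and 6.51% in the pooled libraries, at median depths before thinning of 912 and 2039 UMIs, where the Cd8a without Cd8b1 cells had 1769 and 3238.5. For Cd7 the shares were 52.0% ± 18.4 and 16.7% ± 9.43 (63.2% and 30.4% without thinning), with 1.34% and 4.51% in B cells. For Cd160 they were 18.8% ± 7.97 and 8.48% ± 5.75 (38.9% and 17.7% without thinning), with 0 of 298 B cells in the older library, where thinning left out 521 of 819, which allows a share of up to 1.01%, and 0.314% in the newer library. Intervals and limits of this kind cover counting error only.

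Among the 4 T cell gates the Trdc gate had the highest share for Fcer1g, 61.6% ± 21.3, against 8.14% ± 4.12 in the Cd4 gate (71.9% and 14.9% without thinning, n = 10). Tyrobp was found in 45.4% ± 22.1 of Trdc cells and 7.92% ± 3.09 of Cd4 cells (60.2% and 14.3% without thinning), the latter no higher than its 9.40% and 8.67% in B cells. The Cd4 share was thus not above that of the reference cells, and where its UMIs came from was not tested. Median depths were 2021.5 and 3378.5 UMIs in the Trdc gate and 1301 and 2819 in the Cd4 gate. Cd244a was found in 14.6% ± 9.90 of Trdc cells and 0.520% ± 0.920 of Cd4 cells (33.4% and 2.45% without thinning), with 0 of 298 and 0.510% of B cells. All 10 differences tested in shares, 5 genes by 2 pairs of gates, passed a 2-sided exact permutation test within samples, with adjusted p of 0.00217 for 9 and 0.0039 for Tyrobp between the Cd8 gates. The smallest p that 10 samples can give is 0.00195.

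Within the unconventional gates a Tyrobp UMI was more frequent in cells with a Fcer1g UMI than in the rest. Cells were pooled over the samples of a library, which differ in the level of both genes. The shares therefore cannot separate a link within samples from differences between samples. Of thinned Cd8a without Cd8b1 cells with a Fcer1g UMI, 68.1% also had a Tyrobp UMI in the older library (186 of 273, exact 95% interval 62.2% to 73.6%), against 14.2% of those without (26 of 183, 9.496% to 20.1%). In the newer library the shares were 51.1% and 15.5%. In the Trdc gate they were 72.4% and 25.5% in the older library, and 61.6% and 18.4% in the newer library. The Cd8b1 gate had a contrast too: 36.5% of its 63 cells with Fcer1g in the older library had Tyrobp, against 4.09% of the rest. So did cells in which both genes were low, with 27.3% against 5.55% in the Cd4 gate and 22.3% against 7.72% in B cells of the newer library. In the Ncr1 cells Tyrobp was common with and without a Fcer1g UMI, at 79.0% and 71.9% in the older library and 83.0% and 62.5% in the newer library.

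The unconventional gates were themselves mixed, and Itgae divided them. Itgae encodes CD103, an integrin chain of intraepithelial lymphocytes that binds E-cadherin. In the Cd8a without Cd8b1 gate, Fcer1g stood at 20.0 ± 3.66 UMIs per 10000 in cells with an Itgae UMI and 7.27 ± 6.75 in cells without (SD, n = 8 samples with at least 10 cells on each side). Tyrobp stood at 13.0 ± 3.27 and 3.80 ± 4.15, and Cd7 at 21.6 ± 4.79 and 6.19 ± 5.41. All 3 genes, and Cd244a at 2.49 ± 0.519 and 0.902 ± 0.485, were higher with Itgae in 8 of 8 samples, whereas Cd160 was higher in 6 of 8, at 3.09 ± 0.818 and 2.05 ± 1.34. These values are a description with no test, and cells with an Itgae UMI also had more UMIs, with medians of 2100.5 against 1527 in the older library and 3561 against 2953 in the newer library.

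The Trdc gate showed the same split with a smaller gap for the adaptors. Fcer1g stood at 19.1 ± 7.36 with Itgae and 12.03 ± 6.54 without (n = 8), Cd7 at 18.3 ± 7.99 and 7.36 ± 4.84, and Cd244a at 2.17 ± 1.23 and 0.883 ± 0.636, each higher with Itgae in 8 of 8 samples. Cd160 was near equal, at 2.14 ± 0.875 and 1.89 ± 0.946. Even conventional Cd8b1 cells divided this way: Cd7 stood at 5.35 ± 2.80 with Itgae and 1.62 ± 0.871 without, and Cd244a at 0.783 ± 0.529 and 0.177 ± 0.131, each higher with Itgae in 9 of 9 samples. In this gate Fcer1g stood at 4.36 ± 3.20 and 1.69 ± 0.645, and Tyrobp at 3.03 ± 1.87 and 1.08 ± 0.280. Cd160 stood at 1.70 ± 1.11 and 0.728 ± 0.724. Fcer1g, Tyrobp and Cd160 were each higher with Itgae in 8 of 9 samples. In the Ncr1 cells of the newer library Cd7 was at 25.7 per 10000 with Itgae and 5.04 without, while Fcer1g was at 23.4 and 17.6.

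**Figure D3:**
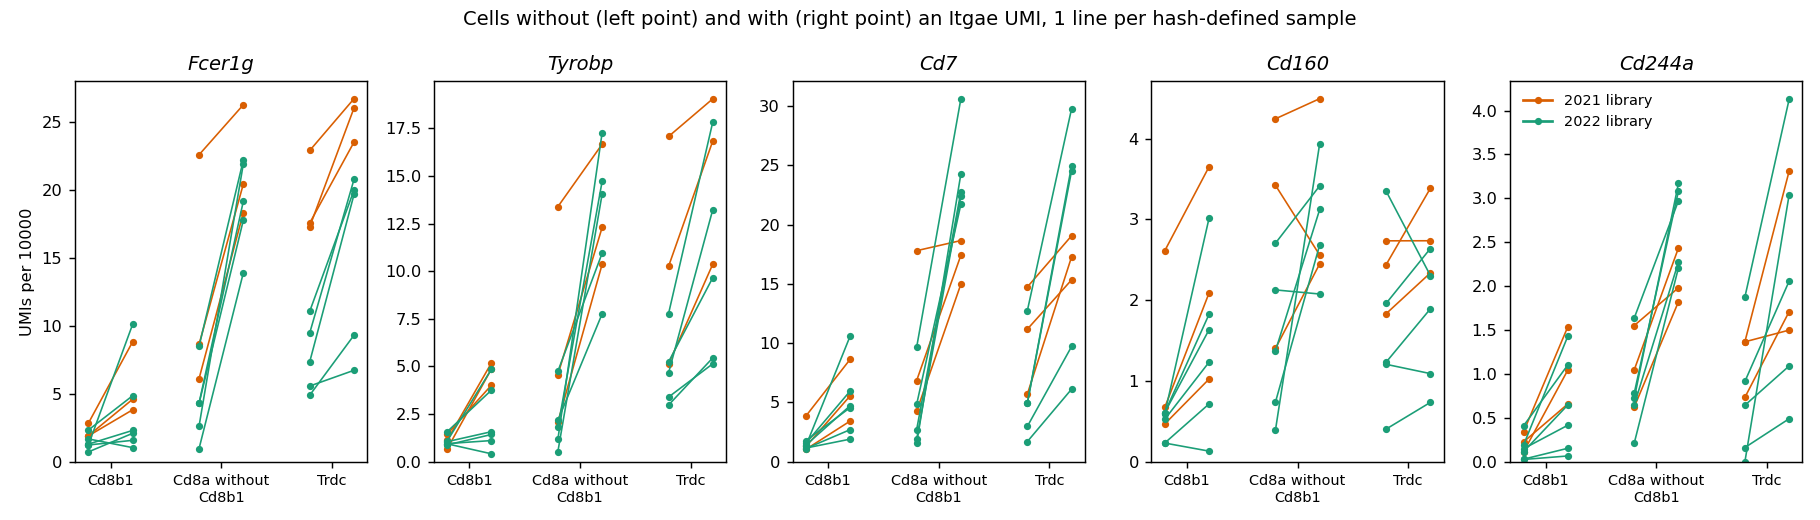
Level of each gene (UMIs per 10000, linear axis from 0) in cells without (left point) and with (right point) an Itgae UMI, in 3 gates. Each line is 1 hash-defined sample, coloured by library. In the Cd8a without Cd8b1 gate the lines of Fcer1g, Tyrobp, Cd7 and Cd244a go up in 8 of 8 samples and those of Cd160 in 6 of 8.

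The gates were also divided by a UMI of other genes. In the Cd8a without Cd8b1 gate, cells with a Trac UMI had Fcer1g at 18.6 and 12.8 per 10000 in the older and newer library, no lower than the 15.9 and 9.10 of cells without, so the adaptor RNA was found in cells with alpha-beta receptor RNA. Trdc cells with an Ncr1 UMI had Tyrobp at 17.2 and 14.9, against 13.1 and 7.40 in those without.

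Genes whose level followed the members most closely were named by a fixed rule, over 53 sums of a gate in a sample (11 samples), with log2 levels centred within each sample. The sums of a sample share a library and the sums of a gate share a cell type, so these correlations describe the gates and have no test. Fcer1g was most like Tyrobp (r = 0.96), Gzma (0.95), a granule protease, and Klrb1c (0.95), the NK1.1 receptor. Tyrobp was most like Fcer1g, Klrb1c (0.93) and Klre1 (0.92), an NK receptor subunit. Cd7 was most like Gzmb (0.96), Chn2 (0.93) and Cd160 (0.92), and Cd160 was most like Gzmb (0.92), Cd7 and Itga1 (0.90), an integrin chain of tissue-resident lymphocytes. Cd244a was most like Car2 (0.95), the chemokine gene Xcl1 (0.94) and Fcer1g (0.94). Among the members the lowest correlation was that of Tyrobp with Cd160 (0.68).

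The receptors that need these adaptors moved with them in part. Of 20 listed receptors that signal through Fcer1g, Tyrobp or the related adaptor Hcst, 7 passed the filter on low counts, which leaves out most of the myeloid receptors on the list. Between the Cd8a without Cd8b1 and Cd8b1 gates 4 of the 7 rose and 0 fell, with a median log2 fold change of 1.33 against 0.00 over all genes tested: Klrb1c by 2.89 (SE 0.26), Klrc2 by 1.70 (SE 0.23), Klrk1, which encodes NKG2D, by 1.42 (SE 0.18) and Klrd1, the CD94 partner of NKG2 receptors, by 1.33 (SE 0.17). Between the Trdc and Cd4 gates 5 of 7 rose, with a median of 2.72. In the Ncr1 cells 6 of 7 were higher than in the Cd8a without Cd8b1 gate, led by the Ly49 receptors Klra8 at 6.11 (SE 0.35) and Klra4 at 5.996 (SE 0.42) log2 units.

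Among 15 listed adaptors and kinases 14 were tested, and between the Cd8a without Cd8b1 and Cd8b1 gates 5 rose and 1 fell, with a median of 0.00. Lat2, a membrane scaffold of B, NK and mast cells, rose by 2.08 (SE 0.23), Plcg2, a phospholipase of the Syk pathway, by 1.89 (SE 0.27), the CD3 chain Cd3g by 0.80 (SE 0.13) and Zap70 by 0.61 (SE 0.10). The gene that fell was the T cell scaffold Lat, which fell by 0.78 (SE 0.15) on the log2 scale. Lat and Syk lie outside the naming rule and were chosen after their values were seen. Syk had a log2 fold change of -0.02 (SE 0.37) there, and rose by 2.24 (SE 0.29) in the Ncr1 cells against the Cd8a without Cd8b1 gate, where 2 of the list rose and 8 fell, among them Cd3g and Cd3d, which fell by 3.76 and 3.89.

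Other genes of the SLAM family, to which Cd244a belongs, and of its adaptors changed in both directions. Of 8 genes tested out of 11 listed, 2 rose and 5 fell between the Cd8a without Cd8b1 and Cd8b1 gates, with a median of -0.70, and 1 rose and 2 fell between the Cd8b1 and Cd4 gates, with a median of 0.14. Slamf6 fell by 1.42 (SE 0.25), Ly9 fell by 0.83 (SE 0.20) and Sh2d1a, which encodes the adaptor SAP, fell by 0.84 (SE 0.23), whereas Sh2d1b1, which encodes the related adaptor EAT-2, rose by 1.95 (SE 0.37). The 7 listed ligands and partners of CD160 and CD7 left 1 gene to test, Btla, which binds the same partner as CD160. Btla fell by 1.57 (SE 0.43, adjusted p = 0.0092, edgeR) between these gates. None of these lists had a called gene between the Trdc and Cd8a without Cd8b1 gates.

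Across samples within a library, the members mostly shared their lowest sample in the unconventional gates, while their highest sample differed in part by gene. In the Cd8a without Cd8b1 gate of the older library, Fcer1g was at 11.9 UMIs per 10000 in Nulliparous, 13.8 in Gestation, 25.2 in Lactation and 4.32 in HT2. In the newer library it was at 10.5 in Gestation, 14.6 in Lactation, 10.4 in the Involution sample, 3.58 in Regression, 10.7 in Balb/c animals and 19.2 in GF. Cd7 in the older library was at 9.37, 11.5, 18.4 and 3.67 in the same order. Lactation was the highest and HT2 the lowest of these 4 samples for both genes, and for Tyrobp, Cd160 and Cd244a as well. Cd7 in the newer library was at 12.6 in Gestation, 16.5 in Lactation, 10.1 in the Involution sample, 5.23 in Regression, 18.6 in Balb/c animals and 25.9 in GF, and Regression was the lowest of these 6 samples for each of the 5 genes. The highest of these samples was GF for Fcer1g, Cd7 and Cd244a, Balb/c for Tyrobp (13.2) and Lactation for Cd160 (3.19). The HT2 and Regression values rest on 31 and 27 cells and the others on 41 to 170.

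In the Trdc gate of the older library, Fcer1g was at 22.1 in Nulliparous, 22.7 in Gestation, 25.5 in Lactation and 9.80 in HT2. In the newer library it was at 15.1 in Gestation, 21.01 in Lactation, 6.88 in the Involution sample, 6.04 in Regression, 17.9 in Balb/c animals and 18.4 in GF. Cd244a in the newer library was at 1.48, 3.01, 0.844, 0.292, 3.80 and 2.49 in that order. Involution and Regression were the lowest samples of the newer library for Fcer1g, Tyrobp, Cd7, Cd160 and Cd244a, and Balb/c the highest for Tyrobp (16.4), Cd7 (27.3) and Cd244a. Names with a single sample in a single library carry no replicate, so these differences have no test. The numbers of Trdc cells behind them run from 23 to 151.

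The Ncr1 cells varied less from sample to sample for the adaptors: Tyrobp had a mean of 18.9 ± 1.94 UMIs per 10000 (SD, n = 11) and Fcer1g 20.2 ± 3.10, against 10.0 ± 4.86 and 16.5 ± 6.87 in the Trdc gate (n = 10). For Cd7 the Ncr1 cells had 8.63 ± 4.68, with Balb/c again the highest.

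**Figure D4:**
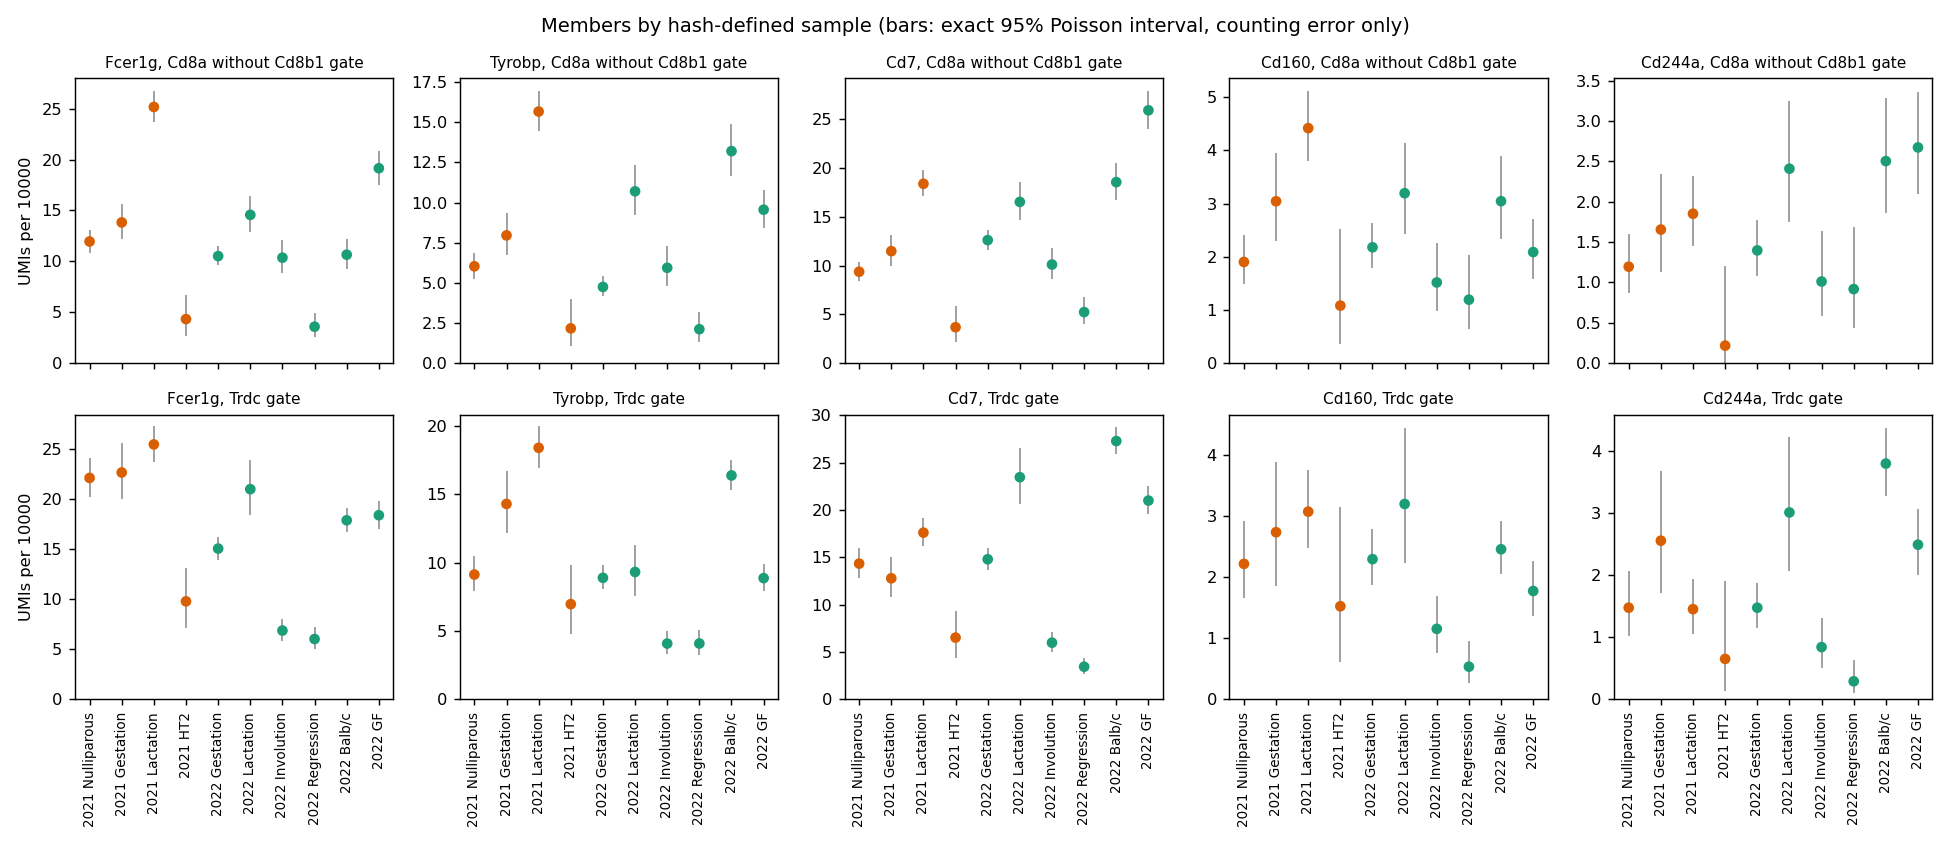
Level of each gene (UMIs per 10000, linear axes from 0) in the Cd8a without Cd8b1 gate (top) and the Trdc gate (bottom) by hash-defined sample, coloured by library, with exact 95% Poisson intervals that cover counting error only. In the top row Lactation is the highest sample of the older library and Regression the lowest of the newer library for all 5 genes.

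Lactation and Gestation were the only names with a sample in both libraries and an undisputed tag, as the Nulliparous tag of the newer library marked no cells, so their difference was tested with the library as a block, on 4 sums with 1 residual degree of freedom. The test borrows spread from other genes, with a median prior of 12.8 degrees of freedom in all T cells and 86.5 in the Ncr1 cells. The p-values of these fits thus rest mostly on that shared spread. In all T cells Fcer1g went from 13.3 in Gestation to 20.8 UMIs per 10000 in Lactation in the older library, and from 4.79 to 8.17 in the newer library. Tyrobp went from 7.69 to 12.9 and from 2.89 to 5.21, and Cd7 from 7.82 to 14.5 and from 5.08 to 10.0. Cd160 went from 1.79 to 3.39 and from 0.982 to 1.74, and Cd244a from 1.36 to 1.47 and from 0.518 to 1.17. Lactation was the higher sample for all 5 genes in both libraries, yet Gestation in the older library was above Lactation in the newer library for Fcer1g, Tyrobp, Cd160 and Cd244a, so the groups overlapped over the libraries for these 4 genes and not for Cd7.

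None of the 5 members passed the threshold in all T cells by edgeR's quasi-likelihood test with Benjamini-Hochberg adjustment, where 0.137% of 9502 genes did. The log2 fold changes were 0.69 (SE 0.26) for Fcer1g, 0.78 (SE 0.24) for Tyrobp, 0.92 (SE 0.25) for Cd7, 0.86 (SE 0.22) for Cd160 and 0.63 (SE 0.25) for Cd244a. All 5 had an unadjusted p under 0.05, from 0.00158 for Cd160 to 0.0271 for Cd244a, with adjusted p from 0.270 to 0.998, and DESeq2 called 0. With the T cells that had an Ncr1 UMI left out, Tyrobp (log2 0.89, adjusted p = 0.0477), Cd7 (1.06, adjusted p = 0.0074) and Cd160 (0.94, adjusted p = 0.0110) were called. In cells with at least 2000 UMIs, a setting added after the data were seen, Cd7 was the only member called (1.24, adjusted p = 0.0086). Over the alternative settings the number of all genes called ran from 0 to 96, against 13 in the main setting. The 0.137% therefore describes the main setting only.

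Several other measures moved with this difference, and their part in it was not tested. Cells of the Cd8a without Cd8b1 gate were 14.9% of T cells in Gestation and 22.3% in Lactation in the older library, and 7.68% and 12.1% in the newer library. Trdc cells were 8.59% and 16.2% in the older library, and 6.86% and 6.76% in the newer library. In the sum over all T cells, more cells of a type and more RNA per cell cannot be told apart. Fcer1g in B cells was at 0.632 in Gestation and 5.52 in Lactation in the older library (31 B cells), and at 1.13 and 3.32 in the newer library (25 B cells). Tyrobp in B cells was at 0.527 and 7.51, and at 1.67 and 3.61. The B cells of the Lactation samples also had more myeloid RNA: the 12 myeloid genes summed to 6.25 in Gestation and 35.6 in Lactation in the older library, and to 9.81 and 41.04 in the newer library, so these B cells do not measure free RNA alone. In all T cells the same list was at 8.97 and 7.02, and at 8.73 and 14.9, and the 8 NK cell genes were at 60.8 and 193, and at 14.8 and 36.4. The median T cell had 1298 UMIs in Gestation and 2056 in Lactation in the older library, and 3252 and 2878 in the newer library.

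Within single gates no member passed the threshold either, and the log2 fold change of Tyrobp in the Cd8a without Cd8b1 gate was larger than in all T cells. In the Cd8a without Cd8b1 gate, where 0.0458% of 4363 genes passed, the members had log2 fold changes of 0.65 (SE 0.25) for Fcer1g, 1.05 (SE 0.26) for Tyrobp, 0.51 (SE 0.25) for Cd7, 0.52 (SE 0.30) for Cd160 and 0.46 (SE 0.34) for Cd244a. Fcer1g and Tyrobp had an unadjusted p under 0.05 (0.0174 and 0.00061), DESeq2 called 0, and Tyrobp was called without TMM scaling (adjusted p = 0.0189). Over the alternative settings of this gate the number of all genes called ran from 0 to 68, against 2 in the main setting. In the Trdc gate no member passed, where 0.0299% of 3345 genes did, with log2 fold changes from 0.15 (SE 0.44) for Cd244a to 0.57 (SE 0.33) for Cd7 and no unadjusted p under 0.05. Among the Ncr1 cells no member passed, where 0.657% of 7913 genes did, with log2 fold changes from -0.24 (SE 0.24) for Cd244a to 0.24 (SE 0.25) for Cd160, none with an unadjusted p under 0.05. DESeq2 called 0 members in both. None of the listed receptors, adaptors, SLAM genes or ligands was called in any of the 4 stage comparisons.

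**Figure D5:**
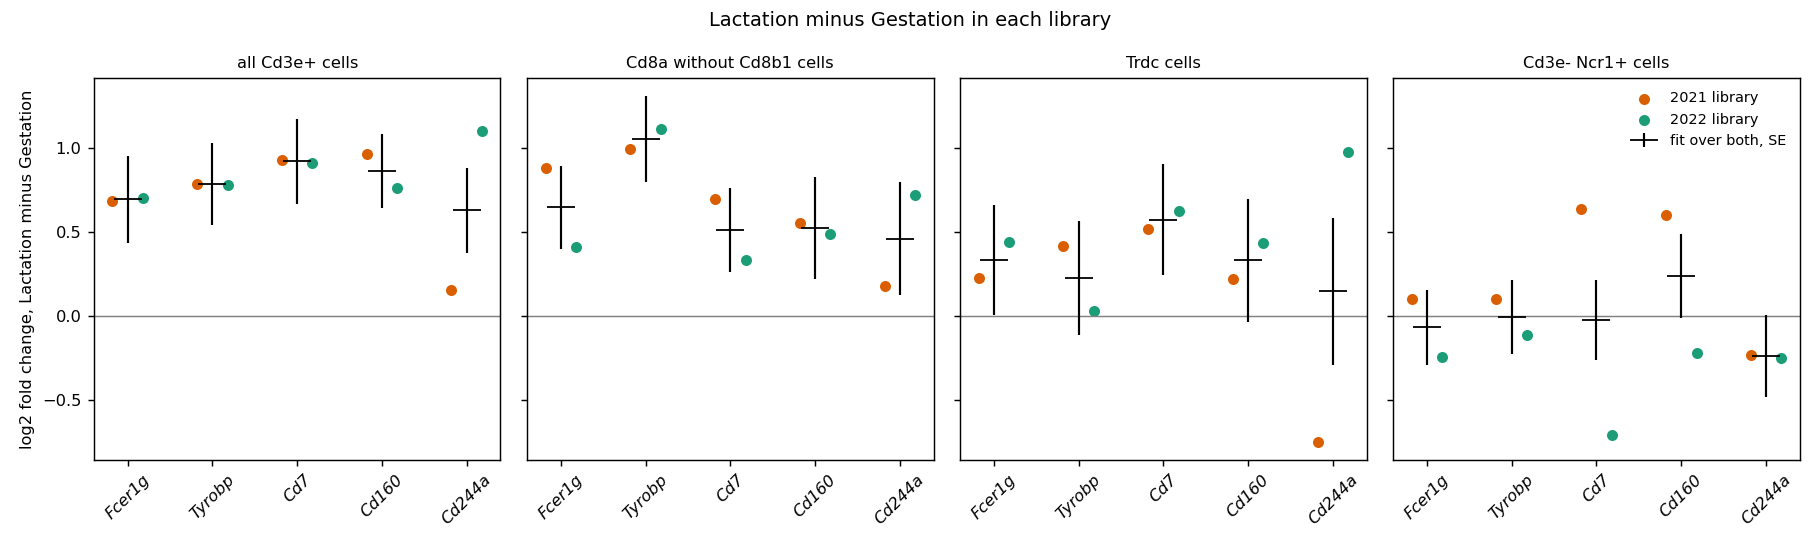
Log2 fold change from Gestation to Lactation of each gene in all T cells, in 2 T cell gates and in Ncr1 cells without Cd3e. Coloured points are the values of each library, and black marks with bars are the fit over both with its SE. In all T cells all values lie above 0, from 0.15 for Cd244a in the older library to 1.10 for the same gene in the newer library, and in the Ncr1 cells the libraries lie on opposite sides of 0 for 4 of 5 genes.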

How the data were processed

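The deposited gene and tag matrices hold raw UMI counts per barcode, made with Cell Ranger 6.1.0 on mm10 per the submitters' processing notes; the gene matrix of the older library names Cell Ranger 4 per the file headers. The libraries shared 139 cell barcodes, and cells were kept apart by library. Cells had at least 500 UMIs, 300 genes and at most 10% mitochondrial UMIs (21604 and 21177 cells). HTODemux (Seurat 5.3.0, quantile 0.99) kept single-tag cells (74.0% and 70.7%), and Scrublet (scanpy 1.11.5) calls, 7.83% and 6.87%, were removed with clusters of at least 50% such calls. B cells (Cd79a and Ms4a1) and Csf1r cells had no Cd3e and no Ncr1. Counts were summed per gate and sample (at least 20 cells) and tested with edgeR 4.0.16 after filterByExpr with TMM scaling, checked on simulated data; calls had an adjusted p under 0.05. Alternatives were DESeq2 1.42.0, no TMM, no filter, no block, other gates and cells, and each library alone. The named genes are all members, the 3 genes most like each (at least 200 UMIs, log2 with 0.1 added), and at most 4 per list by smallest p, with exceptions named in the text. Members and lists were chosen with earlier results of these data known. Splits of the gates by further marker lists are not reported here.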

Additional observations from a re-analysis of the deposited data

Results flagged for a closer look

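T cells outside the 4 gates were used in no test between gates, though they are part of the sums over all T cells, and carried the members above the level in B cells. In T cells with no UMI of a gate gene, Fcer1g stood at 13.7 UMIs per 10000 in the older library and 7.73 in the newer library, against 1.24 and 1.58 in B cells. Tyrobp stood at 7.75 and 5.78, Cd7 at 8.07 and 6.49, Cd160 at 1.64 and 0.981, and Cd244a at 1.04 and 0.777. In the 23 and 148 T cells that fell into more than 1 gate, Fcer1g stood at 11.8 and 5.83, Tyrobp at 7.94 and 4.96, Cd7 at 6.64 and 5.37, and Cd160 at 2.11 and 0.729. Cd244a stood at 0.679 in such cells of the newer library. T cells outside the gates also carried RNA of other cell types, whose part in these levels was not tested. The 12 myeloid genes summed to 10.8 and 24.1 in T cells with no gate gene, and to 19.8 and 24.2 in those in more than 1 gate. They summed to 9.97 and 15.0 in B cells. A list of 6 mast cell genes (Cpa3, Ms4a2 and others) was at 0.094 and 2.61 in T cells with no gate gene.

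Some differences from Gestation to Lactation went in opposite directions in the libraries, which was not tested. Cd244a in the Trdc gate had a log2 fold change of -0.75 in the older library and 0.98 in the newer library, a gap of 1.73. Among the Ncr1 cells the newer library's value minus the older library's was -0.34 for Fcer1g, -0.22 for Tyrobp, -1.35 for Cd7 (0.64 and -0.71) and -0.82 for Cd160 (0.60 and -0.22). Cd244a also went in opposite directions between cell types, by 0.87 between all T cells (0.63) and the Ncr1 cells (-0.24), and by 0.70 between the Cd8a without Cd8b1 gate (0.46) and the Ncr1 cells, likewise not tested.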

How the results depend on the processing

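No called result changed its direction. The number of members called moved by over 1.5 times as follows, and the cause was not tested. Between the Cd8b1 and Cd4 gates it was 0 in the older library alone in place of 3, and 2 to 4 in the other settings. Between the Trdc and Cd8a without Cd8b1 gates it was 1 without the filter in place of 0. Between the Ncr1 cells and the Cd8a without Cd8b1 gate, in place of 4, it was 2 without the block for the sample, 1 in the older library alone, 2 in the newer library alone, 2 with at least 2 UMIs of the gate gene and 2 in cells with at least 2000 UMIs, and 3 or 4 in the other settings. From Gestation to Lactation, in place of 0, it was 3 in all T cells without Ncr1 UMIs, 1 in T cells with at least 2000 UMIs, and 1 in the Cd8a without Cd8b1 gate without TMM scaling. Leaving out each of the 4 stage sums in turn, without the library block, called 0 to 0 members, and Fcer1g in all T cells then ran from -0.43 to 1.81, as such fits compare across libraries.

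Counts of all genes called ran from 23 to 662 (485 in the main setting) for Cd8b1 against Cd4, 187 to 1088 (846) for Cd8a without Cd8b1 against Cd4, 275 to 1237 (1045) for Trdc against Cd4, 139 to 888 (703) for Cd8a without Cd8b1 against Cd8b1, 9 to 186 (53) for Trdc against Cd8a without Cd8b1 and 202 to 1065 (784) for the Ncr1 cells. For the stage they ran from 0 to 96 (13), 0 to 68 (2), 0 to 39 (1) and 0 to 80 (52). Of the 10 share differences, Cd244a between Trdc and Cd4 missed the threshold when cells with myeloid or B cell UMIs were left out (adjusted exact p = 0.0625, n = 6). That setting and the deep cells left too few cells for the stage fits of the Cd8a without Cd8b1 and Trdc gates. Gates set by a UMI miss cells whose gate gene was not captured.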
